A study of Mus musculus with 8 samples.

Results

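Chemokines and their receptors were examined in epididymal white adipose tissue (eWAT), an abdominal fat depot of male mice, of Abhd15 knockout (KO) mice and wild-type (WT) mice. The genes were all those whose single annotated symbol begins with Ccl, Cxcl, Cx3cl, Xcl, Ccr or Cxcr followed by a number, with Ccr2 and Cx3cr1 left out. There were 49 of them among 22180 genes, 34 chemokines and 15 receptors. Ccl19, Ccl21a to Ccl21d and Ccl27b had no probe set of their own and are not among the 49.

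The KO group held 5 male Abhd15-ko mice and the WT group 3 male mice, all on a C57BL/6J background, on normal chow and 14 weeks old, with 1 array per mouse. The mice had gone without food overnight and had then eaten chow for 1 h, so the tissue was in an early refed state. The sources used here do not say how the Abhd15 allele was made. Every value below is a log2 signal made by RMA (robust multi-array average, which corrects background, normalizes between arrays and summarizes probes), and a log2 difference of 1 is a doubling of signal. The signal depends on the probes as well as on the transcript, so levels of different genes are not ranked.

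Chemokines are small secreted or membrane-tethered proteins that guide leukocytes along gradients held on the matrix and the endothelium. They act through G protein coupled receptors that signal mainly through inhibitory G proteins, and most chemokines share receptors with others. In fat they are made by macrophages, endothelium, stromal cells, mesothelium and adipocytes, and they take part in the recruitment of monocytes, T cells and eosinophils. The comparison asks whether this recruitment programme differs in fat that lacks Abhd15, a gene of the alpha/beta-hydrolase family that is linked to insulin's control of lipolysis.

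Abhd15 itself averaged 5.89 ± 0.271 in KO (SD, n = 5) and 6.32 ± 0.157 in WT (SD, n = 3), an adjusted p of 0.423 in limma, and the array labelled KO 3 (6.27) lay inside the WT range of 6.15 to 6.45. Where its probes lie relative to the altered part of the gene is not given, so this does not check the labels. All 11 measured adipocyte markers were above background, with mean signals of 9.85 to 10.4 in KO and 10.1 to 10.4 in WT. Some arrays carried other signals. The mean of 12 testis markers was 3.30 to 4.30 in KO, 5.52 in WT 1, 4.65 in WT 2 and 3.25 in WT 3. The mean of 14 epididymis and seminal duct markers was 4.71 in KO 4 and 1.87 to 2.15 in the other KO arrays, against 3.07 in WT 1 and 1.92 to 1.97 in the other WT arrays. The mean of 16 immediate early and heat shock genes was 6.54 in KO 1, 6.60 in KO 2 and 5.28 to 5.82 in the other KO arrays, against 5.14 to 5.53 in WT.

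A larger share of the chemokine genes than of the receptor genes gave a signal above background. Background was set at 2.45, the 95th percentile of the mean signals of 1394 olfactory and vomeronasal receptor genes, which fat is not known to use. Of the 49 genes 32 (65.3%) had a mean above it, against 67.7% of all genes, and 24 were above it in all 8 arrays. By class, 26 of 34 chemokines and 6 of 15 receptors were above background. Nearest to the line were Ccr9 with a mean of 2.48 and, below it, Ccl22 with 2.40. For testing, a mean of at least 3.61, the median over all genes, was required, which 17 chemokines and 1 receptor (Cxcr4) reached. Ccl27a (3.91) lay nearest to that limit on its upper side and Cxcl11 (3.50) on its lower side.

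**Figure D1:**
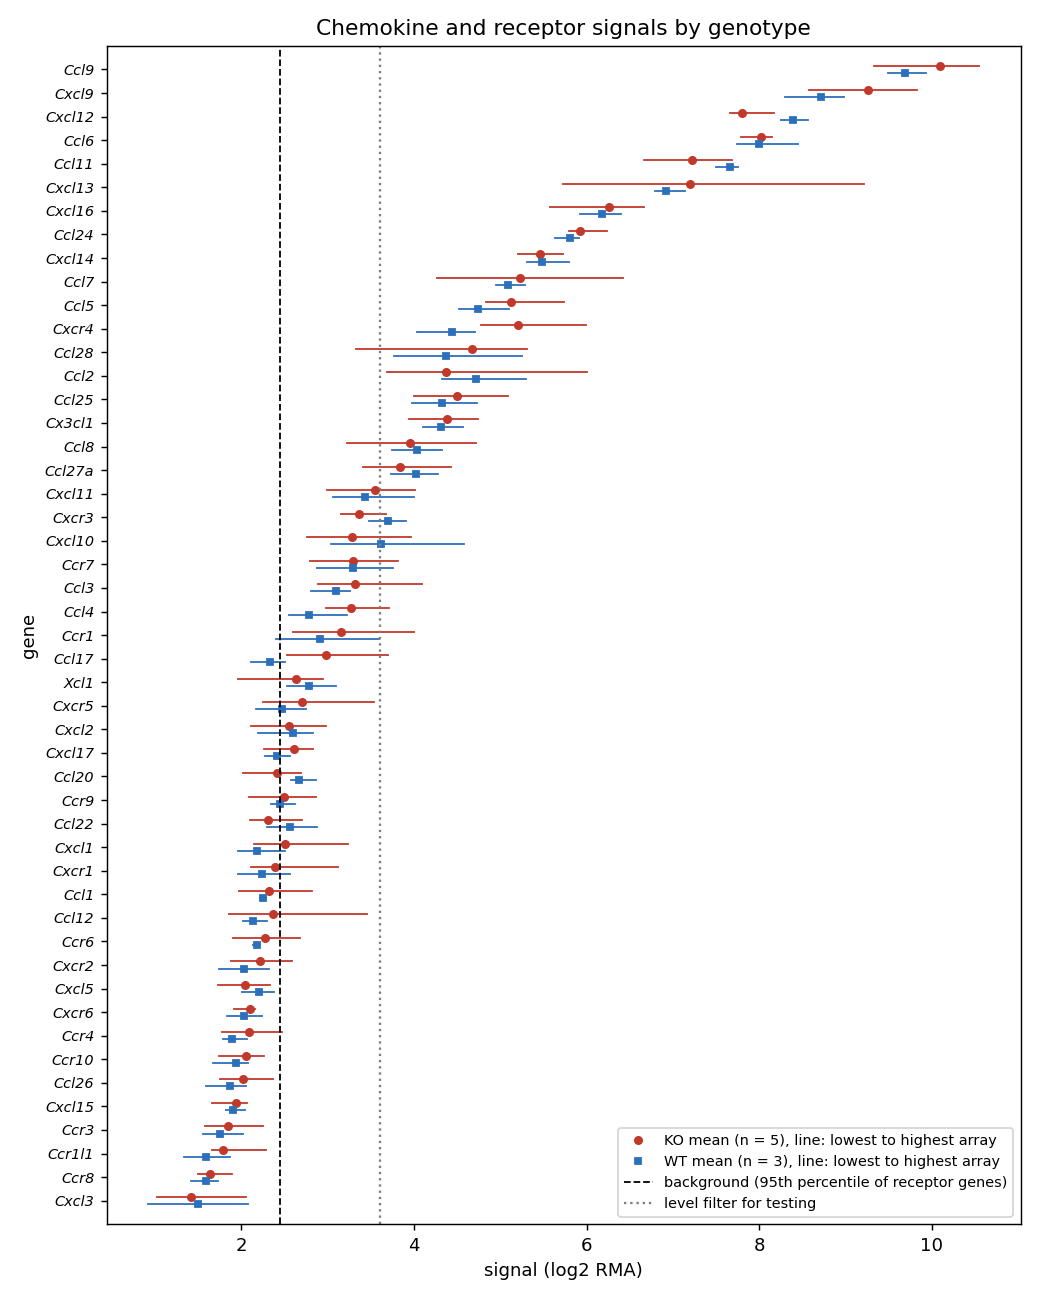
Signal (log2 RMA, x axis) of each of the 49 chemokine and receptor genes (y axis). Points give the KO mean (n = 5, red) and the WT mean (n = 3, blue), lines run from the lowest to the highest array, the dashed line marks background (2.45) and the dotted line the level required for testing (3.61). Of the 15 receptors only Cxcr4 has both group means to the right of the dotted line.

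No chemokine or receptor gene passed the threshold of 0.05 after Benjamini-Hochberg adjustment over the 11090 genes tested with limma, where the share passing among all genes was 0%. The lowest adjusted p among the 18 was 0.270, for Cxcl12. At an unadjusted p under 0.05 there were 2 of 18 (11.1%), with Cxcr4 higher and Cxcl12 lower in KO, against 10.5% of all tested genes (4.04% higher and 6.46% lower). The same 2 genes were also those whose KO and WT arrays did not overlap, against 8.53% of all tested genes (2.99% higher and 5.54% lower). These shares are near the background of the whole array. In all, 12 of the 18 had a positive and 6 a negative log2 fold change (KO minus WT), with a median of 0.10 against -0.03 for all tested genes. The exact permutation tests quoted below are two-sided and count the 56 possible choices of 5 arrays out of 8, and 0.0357 is the smallest p they can give.

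The number with an unadjusted p under 0.05 depended on which arrays were used. With the replicate number as a block, a fit that rests on KO 1 to KO 3, it was 6 (Ccl9, Cxcl9, Cxcl16 and Ccl5 joining, all higher in KO), against 18.0% of all genes. It was 4 without KO 5 (with Ccl9 and Cxcl9), against 14.4% of all genes, and 4 without KO 1 (with Ccl11 and Ccl2, both lower in KO), against 9.70%. Without KO 1 and KO 2 together it was also 4 (Cxcl12, Ccl11 and Ccl2 lower and Cxcl13 higher), against 9.49%. With array weights it was 5, against 16.9%. None of the 18 had an adjusted p under 0.05 in any of these fits.

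**Figure D2:**
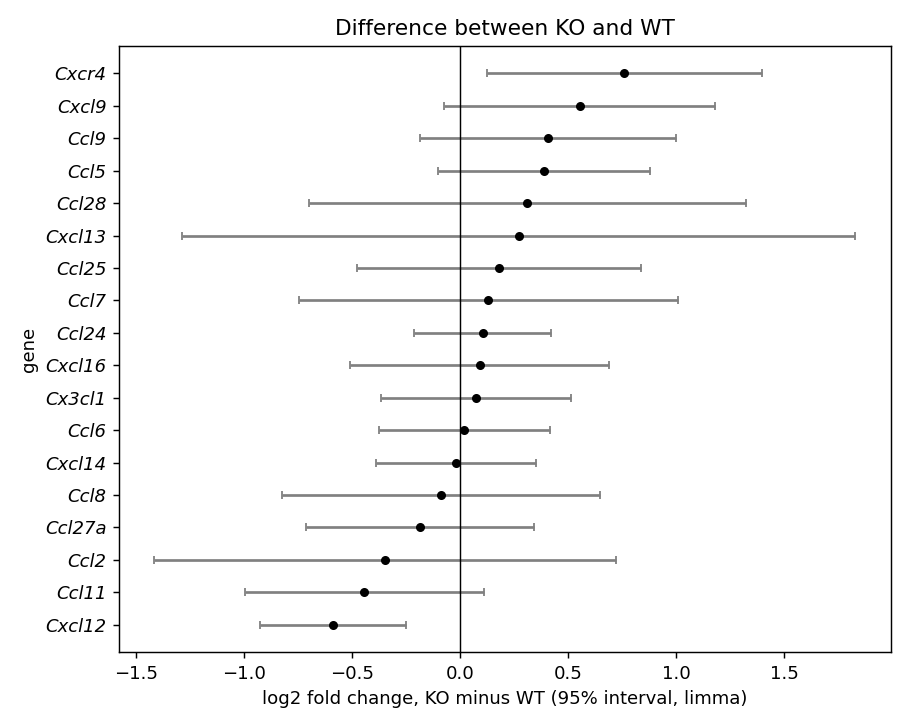
Log2 fold change (KO minus WT, x axis) of the 18 tested genes (y axis) with 95% intervals from limma. The intervals of Cxcr4 (0.12 to 1.40) and Cxcl12 (-0.93 to -0.25) do not include 0, and those of the other 16 do.

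The pair that stood at both ends of the list is a ligand and its receptor. Cxcl12, a chemokine made constitutively by stromal and endothelial cells, holds and attracts cells that carry Cxcr4, its signalling receptor on leukocytes, progenitors and some endothelium. The 250 bases before the start of each gene are shown, since these 2 were the genes with no overlap between the groups, together with those of Cxcl13, the gene with the widest spread among KO mice. The sequences are RefSeq's for GRCm38.p6, 5′ to 3′ on the gene's strand: Cxcl12 at chr6:117168285-117168534 (plus strand), Cxcr4 at chr1:128592300-128592549 (minus strand) and Cxcl13 at chr5:95956689-95956938 (plus strand). Capitals mark letters that match a searched motif on either strand.
Cxcl12: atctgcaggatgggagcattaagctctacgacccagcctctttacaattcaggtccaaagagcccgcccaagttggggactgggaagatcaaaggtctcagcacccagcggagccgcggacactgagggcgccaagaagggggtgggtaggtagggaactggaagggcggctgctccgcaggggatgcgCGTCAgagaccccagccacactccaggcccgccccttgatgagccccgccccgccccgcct
Cxcr4: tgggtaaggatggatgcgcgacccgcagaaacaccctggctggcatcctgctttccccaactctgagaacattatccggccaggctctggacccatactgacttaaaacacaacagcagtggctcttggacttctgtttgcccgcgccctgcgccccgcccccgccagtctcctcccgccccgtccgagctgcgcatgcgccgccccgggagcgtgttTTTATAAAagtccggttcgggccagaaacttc
Cxcl13: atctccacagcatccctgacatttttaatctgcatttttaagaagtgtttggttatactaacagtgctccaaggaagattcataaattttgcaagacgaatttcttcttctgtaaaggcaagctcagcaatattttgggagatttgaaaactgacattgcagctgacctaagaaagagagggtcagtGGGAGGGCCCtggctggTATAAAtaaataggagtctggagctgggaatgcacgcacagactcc

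The motifs searched were an NF-kB-like sequence (GGGA, any 4 bases, then CC), an interferon response-like sequence (GAAA, any 2 bases, then GAAA), a STAT-like sequence (TTC, any 3 bases, then GAA), the half-site of the cyclic AMP response element (TGACG) and a TATA-like sequence (TATAAA). In Cxcl12 the capitals mark the half-site, which 17.8% of 32841 promoters hold. In Cxcr4 they mark a TATA-like stretch in which matches on both strands overlap, a motif held by 12.4% of promoters. In Cxcl13 they mark an NF-kB-like match (17.6% of promoters) and, closer to the start, a TATA-like match. Promoters were found in the table for 35 of the 49 genes. Of these, 16 held the NF-kB-like letters, 11 the TATA-like letters, 6 the half-site, 4 the STAT-like letters (7.02% of all promoters) and 2, Cxcl10 and Cxcl14, the interferon response-like letters (2.98%). A match is a match of letters in this window and shows no binding.

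Cxcl12 (probe set 17462149, chromosome 6) read 7.68, 7.80, 8.18, 7.72 and 7.66 in KO 1 to KO 5, against 8.25, 8.57 and 8.37 in WT 1 to WT 3. Every KO array lay below every WT array, with KO 3 close to the lowest WT array and the other 4 KO arrays close together. The mean was 7.81 ± 0.214 in KO (SD, n = 5) and 8.40 ± 0.159 in WT (SD, n = 3), which gave a log2 fold change of -0.59 (SE 0.152, unadjusted p = 0.0031 and adjusted p = 0.270 in limma). The exact permutation p was 0.0357. Across all the alternatives run, the log2 fold change stayed between -0.68 and -0.50, with adjusted p-values of 0.0936 to 0.656.

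Most markers of endothelium, a source of Cxcl12, had lower values in KO: 9 of 12 tested markers had a negative and 3 a positive log2 fold change, and 5 were lower and 1 higher at an unadjusted p under 0.05, where 6.46% of all tested genes were lower and 4.04% higher. The mean of these 12 markers was 7.20 to 7.46 in KO and 7.38 to 7.74 in WT. Among fibroblast and preadipocyte markers, cells that also make Cxcl12, 5 of 11 were higher and 6 lower, with means of 7.35 to 7.79 in KO and 7.41 to 7.77 in WT. Their part in the Cxcl12 difference was not tested, and in whole tissue fewer cells of a type and less RNA per cell cannot be told apart.

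Cxcr4 (probe set 17226593, chromosome 1) read 5.99, 5.45, 4.81, 4.78 and 4.98 in KO 1 to KO 5, against 4.03, 4.59 and 4.71 in WT 1 to WT 3. All KO arrays were above all WT arrays, KO 3 and KO 4 only slightly, and WT 1 was the lowest array. The mean was 5.20 ± 0.516 in KO (SD, n = 5) and 4.44 ± 0.361 in WT (SD, n = 3), which gave a log2 fold change of 0.76 (SE 0.285, unadjusted p = 0.0238 and adjusted p = 0.397 in limma), with an exact permutation p of 0.0357. KO 1 and KO 2, the arrays with the highest mean of immediate early and heat shock genes, were also those highest in Cxcr4. KO 3, whose mean of those genes (5.82) was also above the WT arrays (5.14 to 5.53), had a Cxcr4 signal of 4.81. Without KO 1 and KO 2 the log2 fold change of Cxcr4 was 0.41 (unadjusted p = 0.0689, adjusted p = 0.559 in limma). The groups did not overlap with all arrays in, so leaving arrays out could not make them overlap. Without WT 1 the log2 fold change of Cxcr4 was 0.55 (unadjusted p = 0.116, adjusted p = 0.776 in limma).

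The atypical receptor Ackr3, which scavenges Cxcl12 without G protein signalling, averaged 5.49 ± 0.369 in KO (SD, n = 5) and 5.26 ± 0.207 in WT (SD, n = 3), with an adjusted p of 0.737 in limma. Leukocytes are the main cells that carry Cxcr4. All 7 tested pan-leukocyte markers had positive log2 fold changes, with a median of 0.17, and none had an unadjusted p under 0.05 in limma. The list mean was 5.70 to 6.37 in KO and 5.66 to 5.84 in WT, and its highest value, in KO 4, went with a Cd52 signal of 10.4 in that array against 5.29 to 5.75 in the other KO arrays and 5.28 to 5.71 in WT. KO 4 was also the array with the highest mean of epididymis and seminal duct markers (4.71). The part of that tissue in the Cd52 signal was not tested. The 10 measured T and NK cell markers had a mean of 2.94 to 3.01 in KO and 2.81 to 2.98 in WT, with Cd3d and Gzmb not above background. Their part in the Cxcr4 values was not tested.

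**Figure D3:**
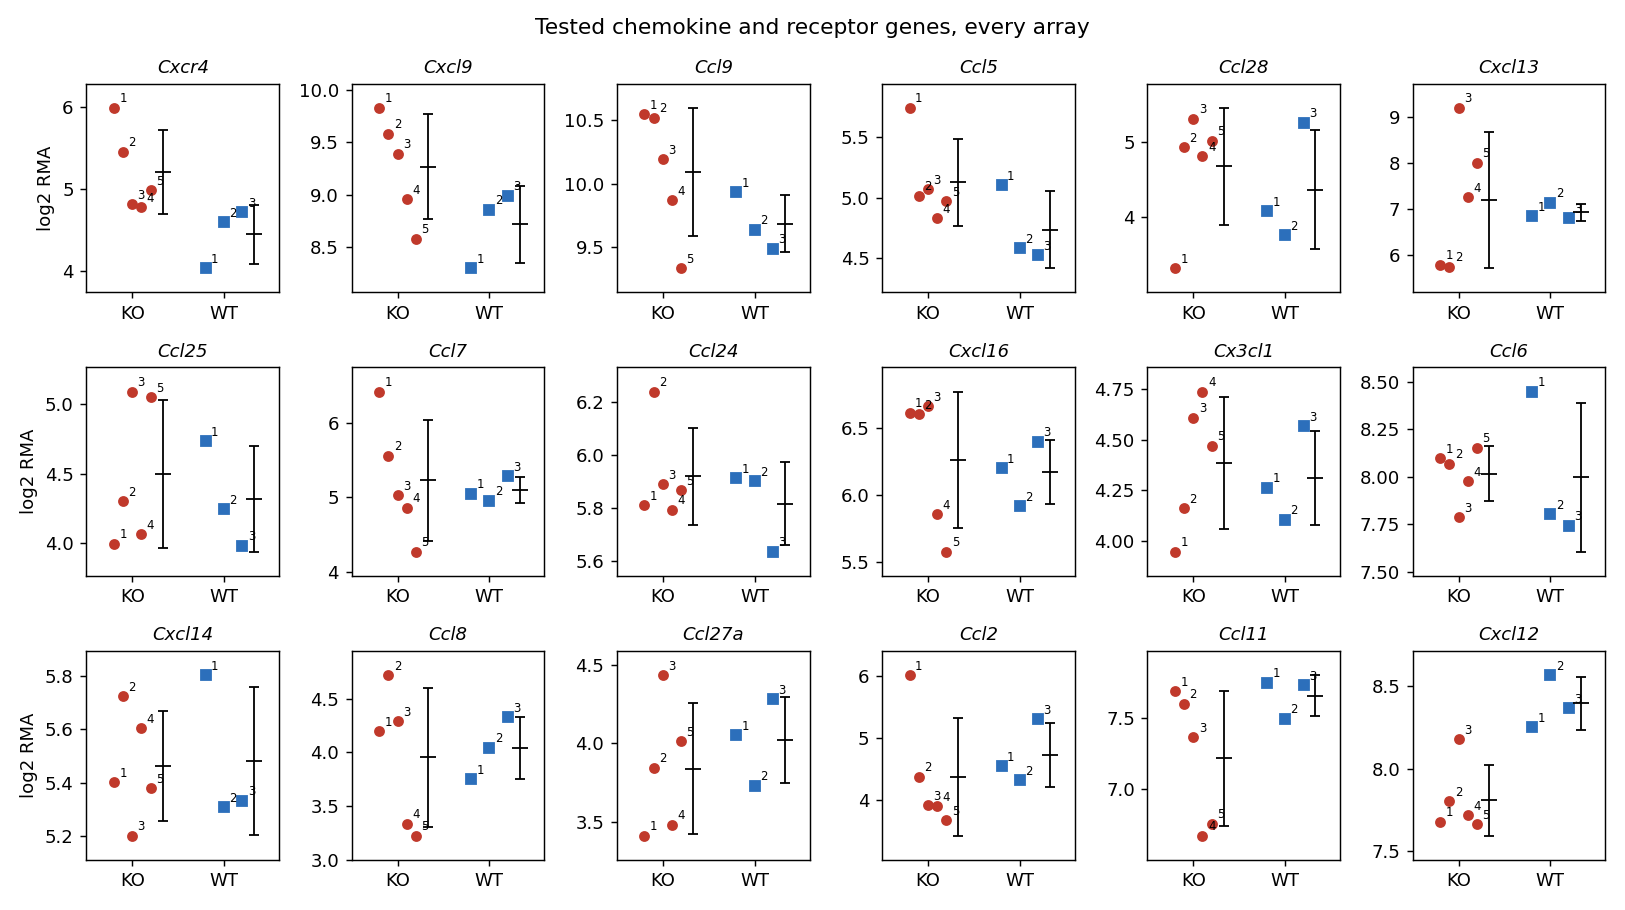
Signal (log2 RMA, y axis, scaled to each gene) of the 18 tested genes in every array, with KO (red circles, numbered 1 to 5) left of WT (blue squares, numbered 1 to 3) and the mean ± SD beside each group. KO and WT points do not overlap for Cxcr4 and Cxcl12, and Cxcl13 has KO points on both sides of its WT points.

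Cxcl9, Ccl9 and Ccl5, chemokines of activated T cells and macrophages, had positive log2 fold changes, with groups that overlapped. Cxcl9, induced by interferon gamma and recognized by Cxcr3 on T and NK cells, read 9.83, 9.58, 9.39, 8.95 and 8.58 in KO 1 to KO 5, against 8.30, 8.86 and 8.99 in WT 1 to WT 3. The first 3 KO arrays were above all WT arrays, while KO 4 and KO 5 lay within the WT range. The log2 fold change was 0.55 (SE 0.281, adjusted p = 0.524 in limma), with a 95% interval of -0.07 to 1.18, and it was 0.26 without KO 1 and KO 2. With the replicate block it was 0.89 (adjusted p = 0.168 in limma).

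Cxcl10, the neighbour of Cxcl9 on chromosome 5, shares its receptor. Cxcl10 and Cxcl11, a gene of the same chromosome, were both below the level required for testing. They ranged over 2.77 to 3.97 and 2.99 to 4.01 in KO, against 3.04 to 4.58 and 3.06 to 4.01 in WT. The highest Cxcl10 signal was in WT 1. Cxcr3 itself, above background in all 8 arrays but below the level for testing, had 3.15 to 3.67 in KO and 3.48 to 3.90 in WT. Among the 12 tested genes of the interferon response, 4 were higher and 8 lower in KO, with a median of -0.05. None had an adjusted p under 0.05, and Stat2 (-0.48) had an unadjusted p under 0.05 in limma.

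Ccl9, a macrophage chemokine of rodents that acts through Ccr1, read 10.5, 10.5, 10.2, 9.87 and 9.34 in KO 1 to KO 5, against 9.94, 9.64 and 9.49 in WT 1 to WT 3. Its order among the KO arrays was that of Cxcl9, with KO 5 below all WT arrays. The log2 fold change was 0.41 (SE 0.266, adjusted p = 0.618 in limma), 0.60 without KO 5 and 0.11 without KO 1 and KO 2. With the replicate block it was 0.73 (unadjusted p = 0.00129, adjusted p = 0.126 in limma). Ccl6, its neighbour on chromosome 11 and also a rodent macrophage chemokine, read 8.10, 8.07, 7.79, 7.98 and 8.15 in KO 1 to KO 5, against 8.45, 7.80 and 7.74 in WT 1 to WT 3. Here the groups lay on top of each other (log2 fold change 0.02, 95% interval -0.37 to 0.41).

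Ccl5, a ligand of Ccr1 and Ccr3 made by T cells and macrophages, read 5.74, 5.02, 5.07, 4.83 and 4.97 in KO 1 to KO 5, against 5.10, 4.58 and 4.53 in WT 1 to WT 3. WT 1 exceeded every KO array but KO 1. The log2 fold change was 0.39 (SE 0.220, adjusted p = 0.562 in limma), and 0.54 with the replicate block (unadjusted p = 0.00479, adjusted p = 0.150 in limma). In the same chromosome 11 group, Ccl3 and Ccl4, inflammatory chemokines of macrophages, were too dim for testing, at 2.88 to 4.10 and 2.99 to 3.71 in KO, against 2.81 to 3.26 and 2.55 to 3.22 in WT. Tested at the lower limit set by background, Ccl4 had a log2 fold change of 0.49 (unadjusted p = 0.0403, adjusted p = 0.511 in limma). The receptor Ccr1 ranged from 2.60 to 4.00 in KO and from 2.40 to 3.60 in WT.

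Another group of chemokine genes lies together on chromosome 11 in the order Ccl2, Ccl7, Ccl11, Ccl12, Ccl8 and Ccl1. Ccl2, the main recruiter of monocytes through Ccr2, read 6.01, 4.38, 3.92, 3.90 and 3.68 in KO 1 to KO 5, against 4.54, 4.33 and 5.30 in WT 1 to WT 3. KO 1 was the highest of all arrays, KO 2 lay in the WT range and KO 3 to KO 5 lay below it. The log2 fold change was -0.35 (SE 0.479, adjusted p = 0.834 in limma) with an interval of -1.41 to 0.72. It was -0.75 without KO 1 (unadjusted p = 0.0139, adjusted p = 0.429 in limma), -0.89 without KO 1 and KO 2, and 0.0453 with the replicate block.

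Single neighbours of Ccl2 were highest in KO 1 as well, a resemblance chosen after the values had been seen. Ccl7 read 6.42, 5.56, 5.03, 4.86 and 4.27 in KO 1 to KO 5, against 5.05, 4.95 and 5.29 in WT 1 to WT 3. Ccl12 stood above background only in KO 1, at 3.46, against 1.85 to 2.28 in the other KO arrays and 2.02 to 2.29 in WT. Cxcl1, a neutrophil chemokine on chromosome 5, read 3.24 in KO 1 and 2.15 to 2.61 in the other KO arrays, against 1.96 to 2.51 in WT. KO 1 also held the highest signal of Nfkbia, a feedback inhibitor of NF-kB (8.36, against 7.54 to 7.95 in the other KO arrays and 7.34 to 7.62 in WT). The mean of all 14 measured NF-kB genes was not highest in KO 1. It was 5.92 there and 5.69 to 5.81 in the other KO arrays, against 5.67 to 5.95 in WT, with WT 1 the highest. The part of the immediate early genes of KO 1 in these values was not tested.

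Ccl11 (eotaxin), which attracts eosinophils through Ccr3, read 7.69, 7.60, 7.37, 6.67 and 6.76 in KO 1 to KO 5, against 7.75, 7.50 and 7.73 in WT 1 to WT 3. KO 4 and KO 5 stood well below the other 6 arrays. The log2 fold change was -0.44 (SE 0.247, adjusted p = 0.558 in limma), -0.73 without KO 1 and KO 2, and -0.11 with the replicate block. Ccl24, another eotaxin, made by macrophages, read 5.81, 6.24, 5.89, 5.79 and 5.87 in KO 1 to KO 5, against 5.91, 5.90 and 5.63 in WT 1 to WT 3. Apart from KO 2 its arrays were close together (log2 fold change 0.10, 95% interval -0.21 to 0.42). Their receptor Ccr3 was not above background in any array.

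Ccl8, which in mice acts on Ccr8, averaged 3.95 ± 0.647 in KO (SD, n = 5) and 4.04 ± 0.288 in WT (SD, n = 3), and was lowest in KO 4 (3.33) and KO 5 (3.22). Cxcl16, a membrane-bound ligand of Cxcr6 that also takes up oxidized lipoproteins, read 6.62, 6.61, 6.67, 5.86 and 5.58 in KO 1 to KO 5, against 6.20, 5.92 and 6.40 in WT 1 to WT 3. KO 1 to KO 3 lay above the WT range and KO 4 and KO 5 below it, which left a log2 fold change of 0.09 (95% interval -0.51 to 0.69). With the replicate block it was 0.46 (unadjusted p = 0.0168, adjusted p = 0.201 in limma). The mean of 12 macrophage markers was 7.54, 7.50 and 7.47 in KO 1 to KO 3. It was lower in KO 4 (7.13) and KO 5 (7.16), and WT arrays had 7.44 to 7.51. Of KO 1 to KO 3 only KO 1 lay above that range. The mean of adipocyte markers split the KO arrays in the same way (10.4, 10.3 and 10.2 against 9.99 and 9.85). So did that of fibroblast and preadipocyte markers (7.63, 7.79 and 7.69 against 7.42 and 7.35). That of endothelial markers did not (7.20, 7.37 and 7.25 against 7.28 and 7.46). All 12 macrophage markers were above background, 3 were higher and 9 lower in KO, and their part in the chemokine values was not tested.

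**Figure D4:**
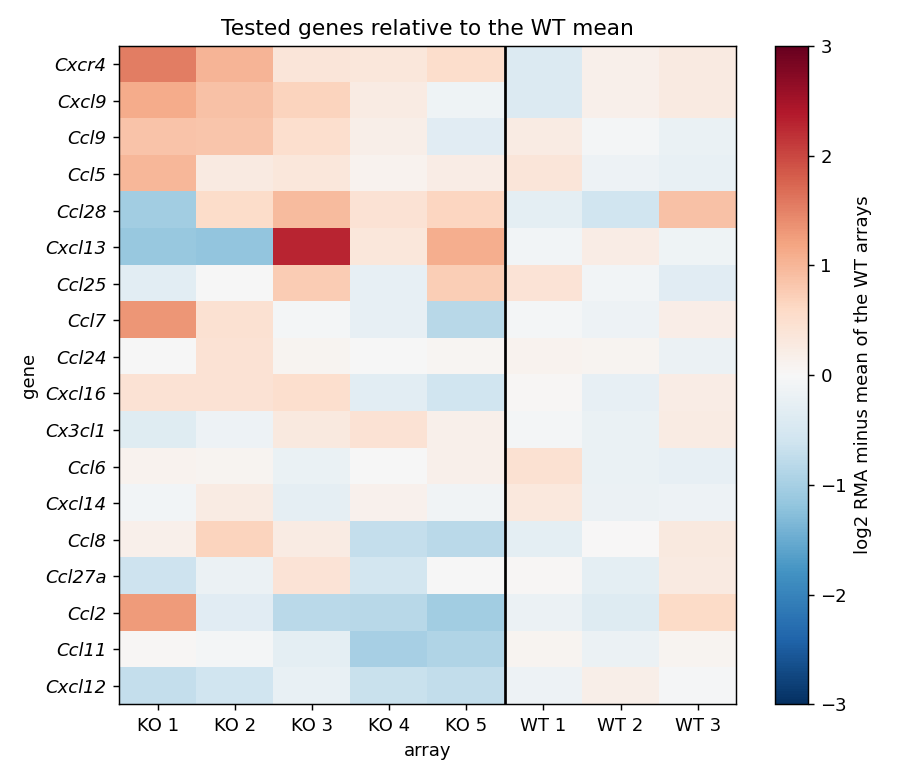
Signal of the 18 tested genes (rows, from the most positive to the most negative log2 fold change) in the 5 KO arrays and the 3 WT arrays (columns), as the log2 difference from the WT mean of each gene. Cxcr4 is above and Cxcl12 below the WT mean in all KO arrays, Ccl2 and Ccl7 are high in KO 1, and Cxcl13 is high in KO 3.

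Cxcl13 differed most between KO mice. This chemokine, made by stromal, mesothelial and some myeloid cells, attracts B cells through Cxcr5 and builds lymphoid clusters in fat. It read 5.78, 5.73, 9.21, 7.26 and 8.01 in KO 1 to KO 5, against 6.84, 7.14 and 6.80 in WT 1 to WT 3. KO 1 and KO 2 lay below all WT arrays and the other 3 KO arrays above them. The SD was 1.49 in KO (n = 5) and 0.185 in WT (n = 3), and the range of 3.48 over the KO arrays was the 44th widest among the 11090 tested genes. The log2 fold change was 0.27 (SE 0.699, adjusted p = 0.917 in limma) with an interval of -1.29 to 1.83, -0.23 without KO 3, and 1.23 without KO 1 and KO 2 (adjusted p = 0.427 in limma).

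Most B cell markers were also highest in KO 3. Cxcr5, named after its values were seen, read 3.53 in KO 3 and 2.25 to 2.66 in the other KO arrays, against 2.17 to 2.74 in WT. Of 7 measured B cell markers 6 were highest in KO 3, and their mean was 3.57 in KO 3 and 2.38 to 2.59 in the other KO arrays, against 2.35 to 2.57 in WT. Cd79a, part of the B cell receptor, read 5.31 in KO 3 and 3.12 to 3.46 in the other KO arrays, against 3.07 to 3.80 in WT. Ms4a1, which encodes the surface protein CD20, read 4.07 in KO 3 and 2.09 to 2.74 in the other KO arrays, against 2.00 to 2.42 in WT. The exception among the markers was Pax5, with 2.55 to 2.70 in KO and 2.48 to 2.64 in WT, and Fcer2a and Cr2 were not above background on average. Ltb, whose product organizes lymphoid tissue, was likewise highest in KO 3 (4.68, against 3.59 to 4.19 in the other KO arrays and 3.28 to 3.66 in WT). The part of B cells in the Cxcl13 values was not tested.

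**Figure D5:**
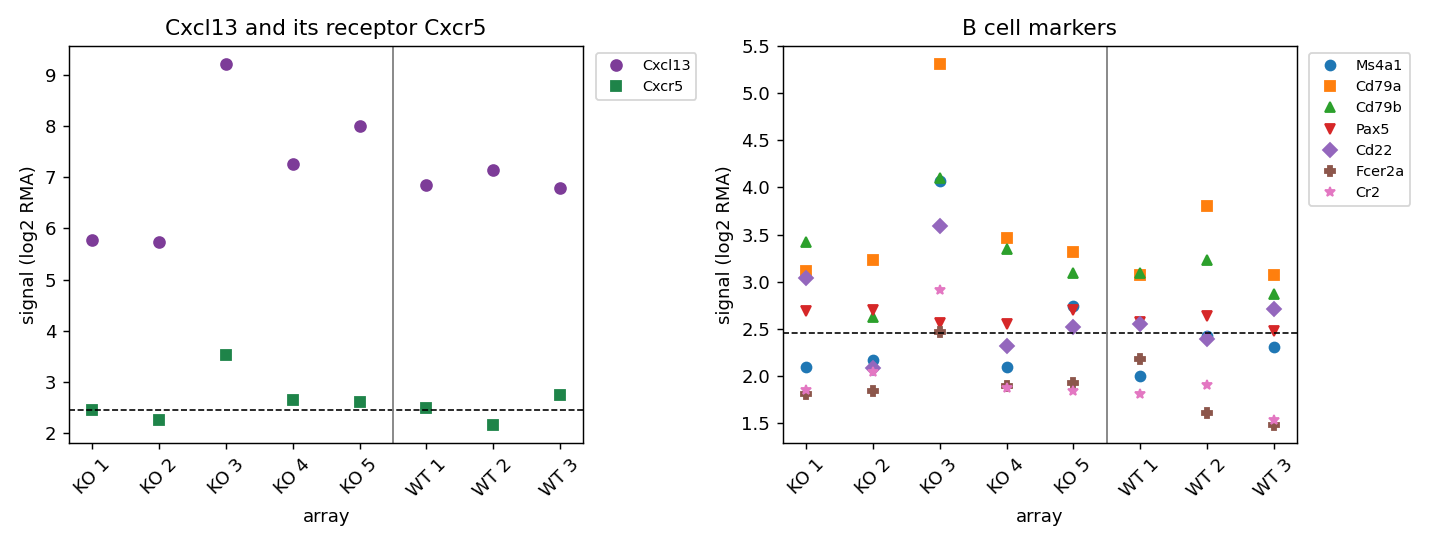
Signal (log2 RMA, y axes) in each array (x axes, KO left of WT) of Cxcl13 and its receptor Cxcr5 (left panel) and of 7 B cell markers (right panel), with background as a dashed line (2.45). KO 3 is the highest array for Cxcl13 (9.21), Cxcr5 (3.53) and 6 of the 7 markers, whereas KO 5, second for Cxcl13 (8.01), lies within the WT range for Cxcr5 (2.62).

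The chemokines of epithelia, known mainly from gut, skin and other barrier tissues, showed no difference larger than their spread. Ccl28, a mucosal ligand of Ccr10 and Ccr3, read 3.33, 4.93, 5.31, 4.81 and 5.02 in KO 1 to KO 5, against 4.08, 3.76 and 5.26 in WT 1 to WT 3. Both groups spanned more than a log2 unit (log2 fold change 0.31, adjusted p = 0.845 in limma). Ccl25, which guides cells to thymus and gut through Ccr9, read 4.00, 4.30, 5.09, 4.07 and 5.05 in KO 1 to KO 5, against 4.73, 4.25 and 3.98 in WT 1 to WT 3. High and low arrays occurred in both groups (log2 fold change 0.18, adjusted p = 0.862 in limma).

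Ccl27a, a skin-associated ligand of Ccr10, read 3.41, 3.85, 4.43, 3.48 and 4.02 in KO 1 to KO 5, against 4.05, 3.73 and 4.28 in WT 1 to WT 3. Its groups overlapped (log2 fold change -0.18, adjusted p = 0.823 in limma). The same 8 values appear at 2 other probe sets annotated to Ccl27a with near copies, so the signal may not come from Ccl27a alone. Cxcl14, a homeostatic chemokine of epithelia and stroma, averaged 5.46 ± 0.204 in KO (SD, n = 5) and 5.48 ± 0.277 in WT (SD, n = 3). Cx3cl1 (fractalkine), a membrane-anchored ligand of Cx3cr1, averaged 4.38 ± 0.325 in KO (SD, n = 5) and 4.31 ± 0.233 in WT (SD, n = 3). The 95% intervals of both log2 fold changes lay within -0.39 and 0.51. Ccr2, a receptor outside the 49 genes, had a log2 fold change of -0.35 (adjusted p = 0.562 in limma). Cx3cr1, also outside them, averaged 3.90 in KO and 3.45 in WT, and reached the level for testing only through KO.

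Of the 31 genes below the level for testing, 23 had a positive and 8 a negative log2 fold change, between -0.34 and 0.65, and at such levels RMA compresses differences. Without a level filter, the groups did not overlap for 3 of the 49 genes, which is near the share of 6.57% among all genes. Of these 3, only Ccl17 was among the 31. This ligand of Ccr4, made by dendritic cells, read 2.85, 2.53, 2.91, 3.70 and 2.91 in KO 1 to KO 5, against 2.50, 2.11 and 2.39 in WT 1 to WT 3. KO 2 exceeded WT 1 only by a few hundredths, and 2 of the WT arrays were below background. Its mean was 2.98 ± 0.434 in KO (SD, n = 5) and 2.34 ± 0.202 in WT (SD, n = 3). Its log2 fold change is the upper end of the range above (0.65). Because the WT mean lay below background, neither this value nor the count of Ccl17 at lower filters is read as a difference. Its neighbour Ccl22, which shares the receptor, was not above background on average and ranged from 2.11 to 2.70 in KO and from 2.30 to 2.88 in WT. The mean of 7 dendritic cell markers was 4.12 to 4.40 in KO and 4.15 to 4.36 in WT.

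The neutrophil chemokines of chromosome 5 were dim. Cxcl2 was just above background (mean 2.57), and Cxcl1, Cxcl3, Cxcl5 and Cxcl15 were not. Their receptors Cxcr1 and Cxcr2 were not above background on average either. Of the other dim chemokines, Xcl1, Ccl20 and Cxcl17 had mean signals of 2.69, 2.51 and 2.54, and Ccl1 and Ccl26 were below background. Besides Cxcr3, Ccr1, Cxcr5 and Ccr9, the remaining dim receptor above background was Ccr7, the receptor that leads dendritic and T cells to lymph nodes, at 2.80 to 3.81 in KO and 2.88 to 3.76 in WT. Ccr3, Ccr8, Ccr10, Cxcr6 and Ccr1l1 stayed below background in all 8 arrays, and Ccr4 and Ccr6 exceeded it in 1 and 2 arrays.

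Genes around the chemokine system were counted from lists of chosen members. None had an adjusted p under 0.05 in limma, like all tested genes. Of 22 tested genes of chemokine receptor signalling, 10 were higher and 12 lower in KO, with a median of -0.01. Stat3, a transcription factor downstream of cytokines and some chemokine receptors, stood lowest by p (log2 fold change -0.57, adjusted p = 0.309). Of 14 tested NF-kB genes 6 were higher and 8 lower, with Nfkbia at 0.43 (adjusted p = 0.450). Inflammatory cytokines and their receptors were divided evenly, with 5 of 10 higher and 5 lower, among the lower ones Tlr4 (-0.36, adjusted p = 0.473). The higher ones include Ltb, which averaged 4.06 in KO and 3.44 in WT and so reached the level for testing only through KO. Il6, Il1a, Ifng, Il10, Lta and Csf3 were not above background.

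Among 15 tested genes for glycosaminoglycan chains, which hold chemokines in place, and for chemokine-cutting proteases, 6 were higher and 9 lower. The metalloprotease Adam17, which sheds Cx3cl1 and Cxcl16, was at -0.32 and the proteoglycan core protein Sdc2 at 0.32 (adjusted p = 0.371 and 0.405 in limma). Of 8 tested related receptors and chemokines outside the naming rule, 2 (Ackr3 and Cx3cr1) were higher and 6 lower. Among these Cmklr1, the receptor of the adipokine chemerin, read 6.90, 6.88, 6.93, 7.45 and 7.72 in KO 1 to KO 5, against 7.82, 7.89 and 7.88 in WT 1 to WT 3. Every KO array was below every WT array (log2 fold change -0.69, SE 0.206, adjusted p = 0.322 in limma). The platelet and macrophage chemokines Pf4 and Ppbp averaged 6.53 ± 0.891 and 5.07 ± 0.559 in KO (SD, n = 5) and 6.94 ± 0.275 and 5.35 ± 0.438 in WT (SD, n = 3).

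The 18 tested genes varied more between mice than the typical gene. Their median SD was 0.504 in KO and 0.277 in WT, against 0.238 in KO and 0.172 in WT over all tested genes. The SD was larger in KO than in WT for 15 of 18, against 68.1% of all tested genes. Among KO arrays, KO 5 gave the lowest value for 7 of 18 genes, where it did so for 37.1% of all tested genes, and KO 1 gave the highest value for 7, where it did so for 26.0%.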

How the data were processed

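RNA of 8 eWAT samples (200 ng each) was hybridized to Affymetrix Mouse Gene 2.0 ST arrays. The deposited values are log2 signals per probe set made by the authors with RMA. RMA and the package oligo are named per the submitters' processing notes, whereas the series text names Expression Console. No source used here gives versions, annotation or build, and no further normalization was applied.

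The table has 41345 probe sets, of which 23521 carry a single symbol, 1814 more than 1 and 16010 no listed symbol. Entrez identifiers matched 23328 of them to a GRCm38.p6 gene table. Each gene was represented by its probe set of highest mean. Genes with a mean of at least 3.61 were tested (11090) with limma 3.58.1 in R 4.3.3 (lmFit and eBayes, two-sided, Benjamini-Hochberg adjustment over all tested genes, threshold 0.05), without a block. Named with group values were all tested members, array by array the 12 of smallest unadjusted p and the 8 of highest mean. Of each other list, up to 4 genes of smallest p could be named. The members and lists were chosen with earlier results of these data known. The code was tested on simulated data. Figures used matplotlib 3.10.9.

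KO and WT share replicate numbers 1 to 3, whose meaning the labels do not give. For arrays of the same number, the deviations from the mean of the group correlated at 0.133, 0.103 and 0.192 over the tested genes. All exceed 0.1, the limit set for running the replicate block as an alternative fit. Arrays of different numbers were not compared, so these correlations do not show that the numbers mark pairs. The labels do not say more of the mice than 1 per array, so p-values measure the spread between these samples, and precision is limited by how few arrays there are.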

Additional observations from a re-analysis of the deposited data

Results flagged for a closer look

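Among the 18 tested genes, the 5 KO arrays were searched for a single array far from the other 4, measured as its gap to the nearest array divided by the range, with a critical value of 0.71. It was exceeded for 4 of the 18 genes (22.2%) and for 6.79% of all tested genes, where chance alone gives about 1 in 20. For Cxcl12, KO 3 was the highest (8.18, the others 7.66 to 7.80, ratio 0.728). For Ccl24, KO 2 was the highest (6.24, the others 5.79 to 5.89, ratio 0.783). For Ccl5, KO 1 was the highest (5.74, the others 4.83 to 5.07, ratio 0.739). For Ccl28, KO 1 was the lowest (3.33, the others 4.81 to 5.31, ratio 0.747). A different array or direction stood out each time.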

How the results depend on the processing

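Across 19 alternatives (other level filters, centring, quantile normalization, the mean of probe sets, another prior, array weights, the replicate block and left-out arrays) no chemokine or receptor gene had an adjusted p under 0.05. The count at an unadjusted p under 0.05, 2 in the report, was 4 of 49 with no filter (8.44% of all genes), 4 of 38 with the 25th percentile as filter (9.20%) and 4 of 32 with the background as filter (9.48%). Among these is Ccl17, whose WT mean is below background. Of the 18 it was 3 with quantile normalization (10.6% of all genes), 5 with array weights (16.9%), 6 with the replicate block (18.0%), 4 without KO 1 and KO 2 (9.49%), and 2 to 4 with single arrays left out (6.72% to 14.4%). The count of genes whose groups did not overlap was 2 to 3 with single arrays left out (9.93% to 14.7% of all genes), and 5 without KO 1 and KO 2 (15.8%). The sign of the log2 fold change held in every alternative for 10 of 18 genes and turned in 30 of 342 gene and alternative pairs. With the replicate block the values that turned were Ccl8 0.362, Ccl6 -0.0123, Cxcl13 -0.018, Ccl2 0.0453 and Cx3cl1 -0.0723. Cxcl14 turned with centred arrays (0.015), quantile normalization (0.00504), array weights (0.0845) and with WT 1 and KO 4 left out (0.106). Ccl8 turned with array weights (0.0433), and Cx3cl1 with WT 1 and KO 4 left out (-0.0393). Without both KO 1 and KO 2 the genes that turned were Ccl6 (-0.0243), Cxcl16 (-0.14) and Ccl7 (-0.378). With single arrays left out the ranges that crossed 0 were -0.11 to 0.25 for Ccl6, -0.23 to 0.64 for Cxcl13, -0.0357 to 0.264 for Cxcl16, -0.10 to 0.14 for Cxcl14, -0.17 to 0.37 for Ccl7, -0.0291 to 0.20 for Cx3cl1 and -0.28 to 0.10 for Ccl8. The causes were not tested. Signals near background limit the dim receptors.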

Other observations

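Ccl19 and the Ccl21 genes, the ligands of Ccr7 that lead dendritic and T cells into lymphoid tissue, were measured only by probe sets annotated to several near copies, and were examined after their values had been seen. Of 13 Ccl19 probe sets 9 had distinct values, and in 6 of these 9 every KO array was below every WT array. Among all tested genes this held for 5.54%. The log2 fold changes were -0.66 to -0.26 over the 13. Of 9 Ccl21 probe sets 5 had distinct values, none was without overlap, and their log2 fold changes were 0.27 to 0.41. Such probe sets share sequence, so those of a family are not separate measurements, and they cannot be given to a single gene.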
